A study of Sus scrofa with 4 samples.

Results

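The genes ITGA2, ITGA3, ITGA5, ITGA8, ITGA9, ITGAV, ITGB1, ITGB5, ITGB6 and ITGB8 encode 10 integrin subunits that lie outside the hemidesmosome, and their RNA was compared between LGR5-high and LGR5-negative epidermal cells. They were chosen by name as the collagen-, laminin-, fibronectin- and TGF-beta-binding subunits, and all 10 were found among the 29837 named genes of the count table. The libraries came from 2 juvenile pigs, 88R and 95R, and each pig gave 1 LGR5-high and 1 LGR5-negative library of sorted live epidermal cells. Both pigs are of the LGR5-H2B-GFP line, in which a histone H2B-GFP reporter was placed in exon 1 of LGR5 on 1 allele and the other allele is intact, so that the LGR5-negative cells carry the same reporter without its signal. The line was founded by nuclear transfer from clonal fibroblasts, and the generation of these pigs is not given in the sources used here. The comparison asks which adhesion genes differ between hair follicle cells with high LGR5 reporter signal and LGR5-negative epidermal cells of the same animal. Cells with low reporter signal, which the paper also sorted, are in neither population.

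Integrins are receptors made of 1 alpha and 1 beta subunit that span the membrane, bind the extracellular matrix outside and join the actin cytoskeleton inside through talin and kindlin. ITGB1 pairs with most alpha subunits and is the main partner of the collagen, laminin and fibronectin receptors of basal keratinocytes. ITGAV pairs with ITGB1, ITGB3, ITGB5, ITGB6 or ITGB8, and the dimers with ITGB6 and ITGB8 are known for freeing active TGF-beta from its latent complex. The hemidesmosome uses a different pair, ITGA6 with ITGB4.

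The 4 libraries held between 30696803 and 32463362 counts on named genes. LGR5 itself had 4551 counts in the LGR5-high cells of pig 88R and 6224 in those of pig 95R, against 36 and 109 in their LGR5-negative cells. Where 2 values are given for a population below, that of pig 88R comes first. The keratinocyte gene KRT5 had between 789559 and 842315 counts in every library. Between populations, the suprabasal keratin genes KRT1 and KRT10 were lower in LGR5-high, with log2 fold changes of -3.57 and -3.55 for KRT1 and -3.49 and -3.38 for KRT10 in pigs 88R and 95R. These are bulk libraries of sorted cells, in which fewer cells of a type and less RNA per cell cannot be told apart.

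Of the 10 integrins, 9 passed the filter on low counts, of which 5 rose and 0 fell in LGR5-high (adjusted p-value under 0.05). The quasi-likelihood test of edgeR was used, with the Benjamini-Hochberg adjustment taken over all 15980 tested genes, of which 22.7% were higher and 22.0% were lower by the same rule. The 5 higher genes were ITGB6, ITGA5, ITGB8, ITGAV and ITGB1, in falling order of their fold change. ITGA2, ITGA3, ITGA9 and ITGB5 were not called, and ITGA8 was hardly detected. With the pig as a replicate block, ITGA2 was also called higher and ITGB5 was called lower, beside 28.5% and 27.2% of all tested genes. The median log2 fold change of the 9 tested integrins was 0.43, against 0.02 for all tested genes. By pig it was 0.74 (88R) and 0.21 (95R), where the median of all tested genes was 0.02 in each pig. For 8 of the 9 genes the CPM values of the populations did not overlap, which held for 76.6% of all tested genes.

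**Figure D1:**
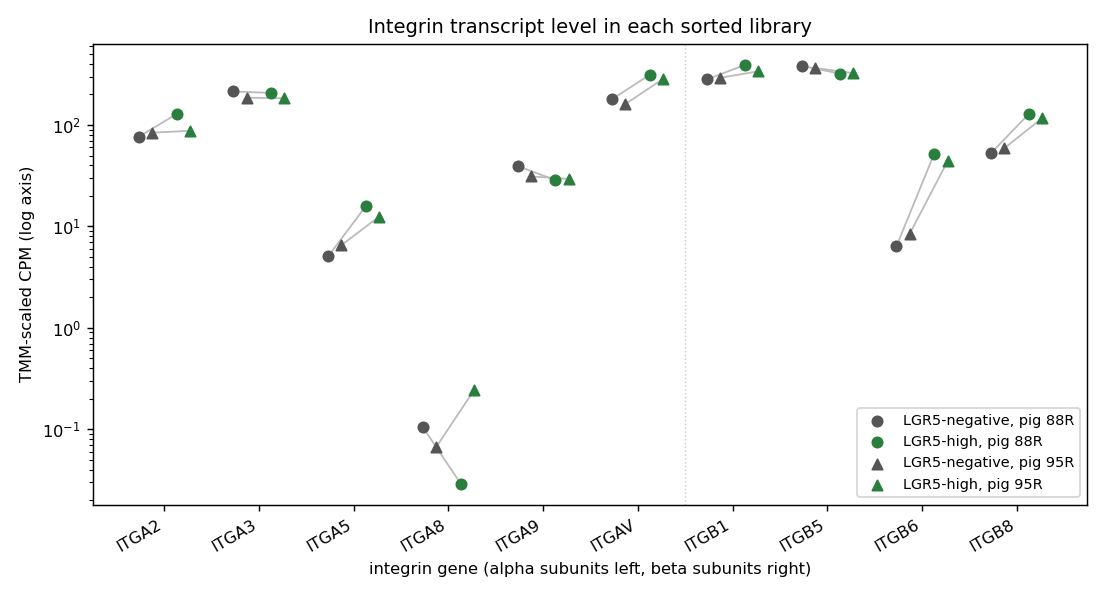
Level of the 10 integrin genes in each library, as CPM after TMM scaling on a log axis, with circles for pig 88R, triangles for pig 95R, green for LGR5-high, grey for LGR5-negative and a line joining the libraries of each pig. The values are not divided by transcript length, so they are read within a gene: ITGB6 rises most from grey to green, ITGB5 and ITGA3 lie nearly level, and ITGA8 is at most at 0.242 CPM.

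The largest difference among the 9 tested genes was that of ITGB6, the epithelial partner of ITGAV that binds the latency peptide of TGF-beta. ITGB6 had 1797 and 1447 counts in LGR5-high, and 181 and 255 in LGR5-negative. Both LGR5-high libraries thus lay far above both LGR5-negative ones. In CPM, counts scaled to the TMM-adjusted library size, ITGB6 had 48.0 ± 5.99 in LGR5-high and 7.39 ± 1.48 in LGR5-negative (SD, n = 2 pigs). The difference was 6.49-fold, or 2.70 on the log2 scale (standard error 0.181, adjusted p = 2.35e-04 by edgeR). Pig 88R alone gave a log2 fold change of 3.03 and pig 95R one of 2.37. Among the 3632 genes called higher, whose median log2 fold change was 1.50, ITGB6 was at rank 908 by size.

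ITGB8 encodes the other beta subunit through which ITGAV acts on latent TGF-beta. It had 4441 and 3877 counts in LGR5-high, and 1508 and 1782 in LGR5-negative. The populations did not overlap, with 123 ± 8.36 CPM in LGR5-high against 55.9 ± 4.28 CPM in LGR5-negative (SD, n = 2). The log2 fold change of ITGB8 was 1.14 (standard error 0.0972, adjusted p = 5.06e-04 by edgeR), with 1.29 for pig 88R alone and 0.99 for pig 95R alone.

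ITGAV, the alpha subunit that these beta subunits share, had 10803 and 9442 counts in LGR5-high, and 5122 and 4875 in LGR5-negative. It rose alike in both pigs, by a log2 fold change of 0.81 in pig 88R and 0.82 in pig 95R. Its level was 300 ± 20.1 CPM in LGR5-high against 171 ± 13.0 CPM in LGR5-negative (SD, n = 2). The fit gave 0.82 (standard error 0.0957, adjusted p = 0.00151 by edgeR).

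ITGB5, a partner with which ITGAV binds vitronectin, was not among the genes that rose. It had 11037 and 10729 counts in LGR5-high, and 10919 and 11042 in LGR5-negative. The raw counts were nearly equal, and after TMM scaling both LGR5-high libraries lay below both LGR5-negative ones, with 323 ± 2.63 and 374 ± 12.6 CPM (SD, n = 2). The log2 fold change of ITGB5 was -0.21 (95% interval -0.40 to -0.02, adjusted p = 0.0686 by edgeR). With the pig as a replicate block it was again -0.21, at an adjusted p of 0.049995 from the same test, just under the threshold. Without TMM, by library size alone, it was 0.01, so that the direction for ITGB5 depends on the scaling.

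Ratios of counts within a library do not depend on the scaling between libraries. For each count of ITGAV there were 0.166 and 0.153 counts of ITGB6 in LGR5-high, and 0.0353 and 0.0523 in LGR5-negative. ITGB5 went the other way, with 1.02 and 1.14 counts for each count of ITGAV in LGR5-high and 2.13 and 2.27 in LGR5-negative. For ITGB8 the ratio was 0.411 and 0.411 in LGR5-high, and 0.294 and 0.366 in LGR5-negative. ITGB8 therefore moved nearly in step with ITGAV in pig 95R, where the shift was 0.17 on the log2 scale, and ahead of it in pig 88R, where it was 0.48. The ratio of ITGB6 to ITGB5 was 9.82-fold higher in the LGR5-high library of pig 88R than in its LGR5-negative library, and 5.84-fold higher in pig 95R. The ratio of ITGB6 to ITGB8 was 3.37-fold and 2.61-fold higher. With 2 libraries in each population an exact 2-sided permutation test of a ratio cannot go below p = 0.333, so none of these shifts was tested.

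**Figure D2:**
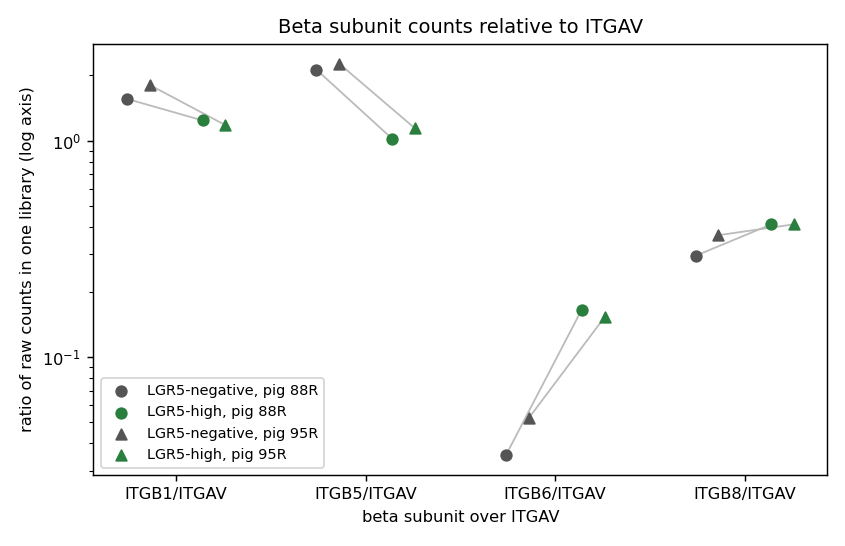
Counts of ITGB1, ITGB5, ITGB6 and ITGB8 divided by the counts of ITGAV in the same library, on a log axis, with circles for pig 88R, triangles for pig 95R, green for LGR5-high and grey for LGR5-negative. The lines of both pigs fall for ITGB1 and ITGB5 and rise for ITGB6 and ITGB8, most steeply for ITGB6.

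ITGB1, the shared partner of the collagen, laminin and fibronectin receptors, had a small difference. It had 13428 and 11175 counts in LGR5-high, and 8013 and 8832 in LGR5-negative, which is 364 ± 37.0 and 287 ± 7.83 CPM (SD, n = 2). Both LGR5-high libraries lay above both LGR5-negative ones, but the pigs differed in size, with a log2 fold change of 0.47 for pig 88R alone and 0.21 for pig 95R alone. The fitted log2 fold change of ITGB1 was 0.35 (standard error 0.0972, adjusted p = 0.0323 by edgeR). The call was lost without the LGR5-high library of pig 88R (log2 fold change 0.23, adjusted p = 0.176), without the LGR5-negative library of pig 88R (0.31, adjusted p = 0.101) and without the LGR5-negative library of pig 95R (0.36, adjusted p = 0.0642), all from edgeR.

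ITGA5, which forms the classical fibronectin receptor with ITGB1, rose more than its partner. It had 546 and 414 counts in LGR5-high, and 144 and 197 in LGR5-negative. The populations were well apart at a low level, with 14.2 ± 2.37 CPM in LGR5-high against 5.79 ± 1.04 CPM in LGR5-negative (SD, n = 2). The log2 fold change of ITGA5 was 1.29 (standard error 0.207, adjusted p = 0.00469 by edgeR), with 1.64 for pig 88R alone and 0.94 for pig 95R alone. Its count relative to that of ITGB1 was 2.26-fold higher in LGR5-high in pig 88R and 1.66-fold higher in pig 95R.

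ITGA2, the alpha subunit of the collagen receptor of keratinocytes, differed between the pigs more than between the populations of pig 95R. It had 4393 and 2894 counts in LGR5-high, and 2177 and 2536 in LGR5-negative. In CPM these were 128 and 87.6 in LGR5-high, and 76.4 and 83.9 in LGR5-negative. The LGR5-high library of pig 88R stood apart from the other 3, which lay close together. For ITGA2, pig 88R alone gave a log2 fold change of 0.74, and pig 95R alone one of 0.06. The fitted value was 0.43 (95% interval -0.02 to 0.87, adjusted p = 0.106 by edgeR). With the pig as a replicate block it was 0.40, at an adjusted p of 0.0101 from the same test. Without the LGR5-high library of pig 95R it was 0.68 (adjusted p = 0.0134 from edgeR), and without that of pig 88R it was 0.12 (adjusted p = 0.457).

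ITGA3, the alpha subunit of the laminin receptor that lies outside hemidesmosomes, had 7129 and 6062 counts in LGR5-high, and 6104 and 5620 in LGR5-negative. It was the only tested member whose populations overlapped, with 207 and 183 CPM in LGR5-high and 214 and 186 CPM in LGR5-negative. Its log2 fold change was -0.03 (95% interval -0.30 to 0.23, adjusted p = 0.817 by edgeR). With library size only it was 0.19, so that ITGA3 has no direction here that holds under each scaling.

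ITGA9, which with ITGB1 binds tenascin C and other matrix proteins, had 982 and 970 counts in LGR5-high, and 1123 and 939 in LGR5-negative. The LGR5-high libraries were alike, at 28.6 and 29.4 CPM, and the LGR5-negative libraries had 39.4 and 31.1 CPM. The log2 fold change of ITGA9 was -0.28 (95% interval -0.63 to 0.06, adjusted p = 0.150 by edgeR). Without the LGR5-negative library of pig 95R it was -0.45 at an adjusted p of 0.0299 from edgeR, and without that of pig 88R it was -0.11.

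ITGA8, which with ITGB1 binds nephronectin and is best known from mesenchymal and smooth muscle cells, had 1 and 8 counts in LGR5-high, and 3 and 2 in LGR5-negative. Of these, 3 libraries did not exceed 3 counts, the upper limit that a count of 0 allows, and no fold change is given. At this depth 3 counts correspond to between 0.0873 and 0.105 CPM, for counting error only.

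**Figure D3:**
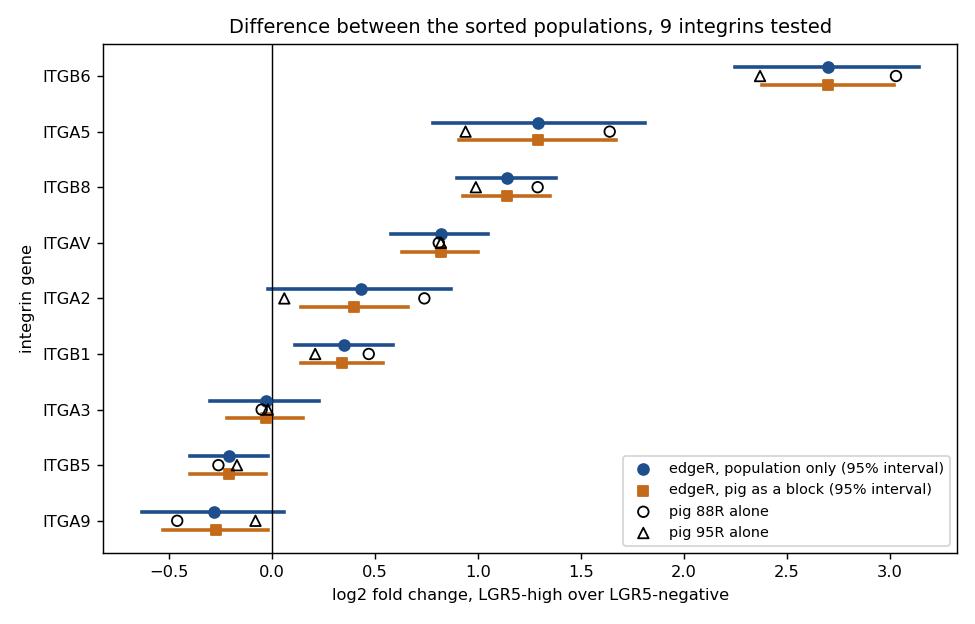
Log2 fold change of LGR5-high over LGR5-negative for the 9 tested integrins, with blue circles and bars for edgeR's estimate and 95% interval without the pig, orange squares and bars for the fit with the pig as a block, and open circles and triangles for pigs 88R and 95R alone. ITGB6 stands at 2.70, ITGA5, ITGB8 and ITGAV lie between 0.82 and 1.29, and the interval of ITGA2 includes 0 only without the block.

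The spread between the pigs differed among the members. Within LGR5-high, the CPM of pig 88R over that of pig 95R was between 0.973 for ITGA9 and 1.46 for ITGA2 among the tested members. Within LGR5-negative it was between 0.753 for ITGB6 and 1.27 for ITGA9. ITGB6, ITGA5, ITGB8, ITGA2 and ITGB1 were higher in pig 88R than in pig 95R among LGR5-high cells and lower among LGR5-negative cells, so that each had the larger fold change in pig 88R. ITGAV and ITGA3 kept nearly the same ratio between the pigs in both populations, at 1.10 and 1.11 for ITGAV and 1.13 and 1.15 for ITGA3.

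**Figure D4:**
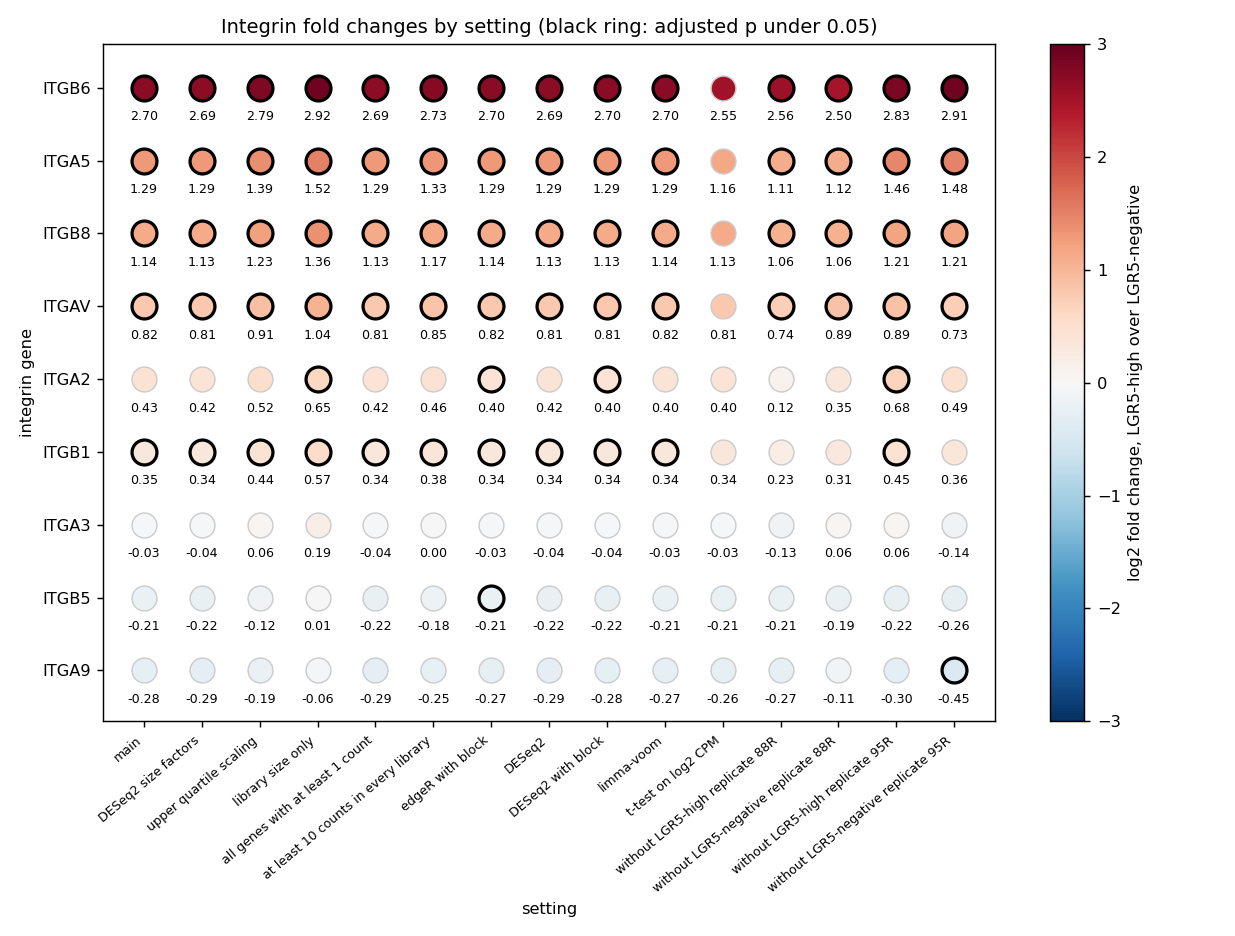
Log2 fold change of LGR5-high over LGR5-negative for the 9 tested integrins (rows) under the main test and each of the 14 other settings (columns), coloured from blue to red and printed under each point, with a black ring where the adjusted p-value was under 0.05. ITGB6, ITGA5, ITGB8 and ITGAV have a ring in every column but that of the gene-by-gene test on log2 CPM, while the rings of ITGB1, ITGA2, ITGB5 and ITGA9 depend on the column.

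By the distance between log2 CPM values centred over the 4 libraries, the genes with the pattern nearest to ITGB6 among the 15979 others tested were LOC100514506, ZNF8, LHFPL1, CREB5 and PKD2. Their distances were between 0.0775 and 0.117 on the log2 scale, and the median over all genes was 2.73. The 4 libraries are few, and many genes share a pattern over them.

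Of 16 other integrin genes, 15 were tested, 3 were higher, 3 were lower and 9 were not called, with a median log2 fold change of -0.05. These shares are near those of all tested genes, 22.7% higher and 22.0% lower. The hemidesmosome pair was lower in LGR5-high: ITGA6 had a log2 fold change of -0.94 and ITGB4 one of -0.38 (adjusted p = 0.00289 and 0.0164 by edgeR). The call of ITGB4 was lost with library size only, where its log2 fold change was -0.16, and without either LGR5-high library, with -0.33 without that of pig 88R and -0.45 without that of pig 95R. Relative to ITGB4, the counts of ITGB1 were 1.95-fold higher in LGR5-high in pig 88R and 1.41-fold higher in pig 95R. Relative to ITGA6, those of ITGA3, the other laminin-binding alpha subunit, were 1.66-fold and 2.08-fold higher. ITGA7, a laminin-binding subunit known from muscle, was lower, with 69 and 100 counts in LGR5-high and 401 and 556 in LGR5-negative. ITGA1 and ITGA4, which bind collagen and fibronectin as partners of ITGB1, were higher from a low level, with log2 fold changes of 3.89 and 3.43 and at most 114 counts in any library. ITGB3, the remaining partner of ITGAV, had 20 and 7 counts in LGR5-high and 2 and 5 in LGR5-negative and did not pass the filter.

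Among 40 genes for proteins that link integrins to actin or signal from them, 39 were tested. Of these, 19 rose and 6 fell in LGR5-high, beside 22.7% and 22.0% of all tested genes. The median log2 fold change of the 39 was 0.30. With the pig as a replicate block, 20 were higher and 9 were lower, beside 28.5% and 27.2% of all tested genes. The actin crosslinker genes FLNC and ACTN1 had the smallest p-values among the higher genes. FLNC had 58.5 ± 2.13 CPM in LGR5-high against 5.83 ± 0.553 CPM in LGR5-negative (SD, n = 2), and ACTN1 had 530 ± 21.8 and 145 ± 1.78 CPM. Their log2 fold changes were 3.33 and 1.87 (adjusted p = 6.2e-05 and 7.6e-05 by edgeR). VASP and PARVG led the lower genes. VASP, an actin regulator of adhesion sites, had a log2 fold change of -0.83, and PARVG, the parvin of blood cells, had 1 and 0 counts in LGR5-high and 31 and 36 in LGR5-negative.

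Of the 27 ligand genes in the count table, all tested, 15 were higher and 4 were lower, beside 22.7% and 22.0% of all tested genes. The median log2 fold change of the ligand genes was 1.08. NPNT, which encodes the ITGA8 ligand nephronectin, had 241 ± 15.3 CPM in LGR5-high against 52.3 ± 1.88 CPM in LGR5-negative (SD, n = 2), with a log2 fold change of 2.21. The basement membrane collagen gene COL4A2 had one of 4.59. CYR61, also known as CCN1, and the laminin chain gene LAMA3 were lower, with -1.47 and -0.74. With the pig as a replicate block, 17 ligand genes were higher and 7 were lower, beside 28.5% and 27.2% of all tested genes.

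Of 12 genes around latent TGF-beta, 11 were tested, 7 were higher and 2 were lower, beside 22.7% and 22.0% of all tested genes. The median log2 fold change of the 11 was 1.47. The higher genes were the 3 ligands TGFB1, TGFB2 and TGFB3, with 1.45, 1.98 and 2.23, and the LTBP family genes LTBP1, LTBP2, LTBP3 and LTBP4. LTBP4 had the smallest p-value, with 739 ± 59.5 CPM in LGR5-high against 170 ± 12.8 CPM in LGR5-negative (SD, n = 2) and a log2 fold change of 2.12 (adjusted p = 1.02e-04 by edgeR). LTBP3 had a log2 fold change of 1.70. The receptor genes TGFBR3 and TGFBR2 were lower, with -2.68 and -0.95. The call of TGFBR2 was lost with library size only (-0.72, adjusted p = 0.0788 from edgeR), without the LGR5-negative library of pig 88R (-0.56, adjusted p = 0.108) and without the LGR5-high library of pig 95R (-0.68, adjusted p = 0.174).

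**Figure D5:**
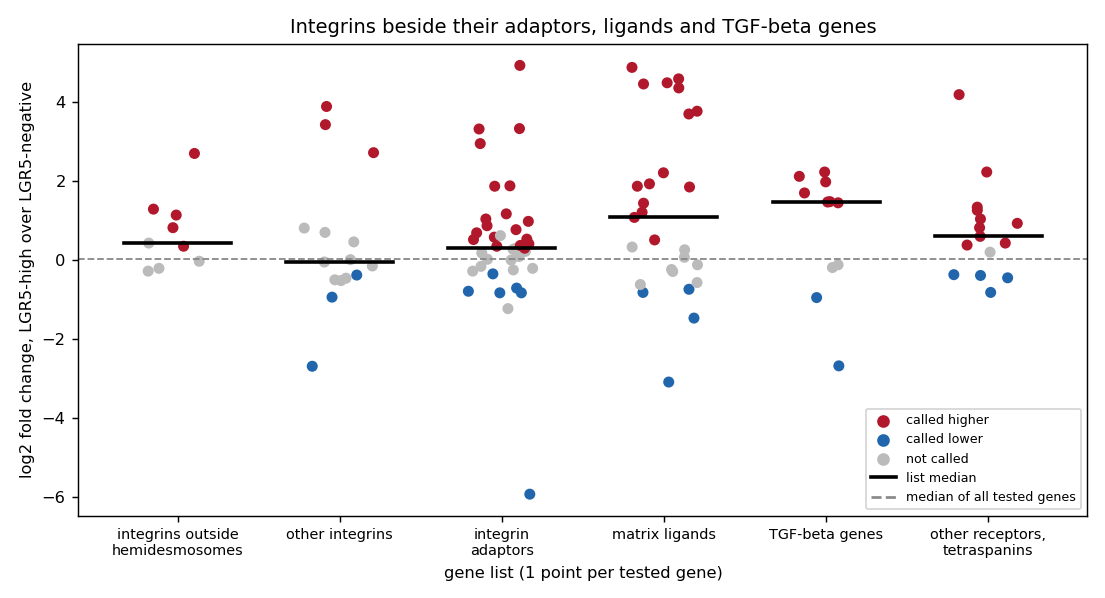
Log2 fold change of LGR5-high over LGR5-negative for each tested gene of the integrin lists, the adaptors, the ligands, the TGF-beta genes and the other receptors, in red where called higher, blue where called lower and grey otherwise, with a black bar at each list's median and a dashed line at 0.02, the median of all tested genes. The lowest adaptor point is PARVG, which rests on 1 and 0 counts in LGR5-high, and the medians run from -0.05 for the other integrins to 1.47 for the TGF-beta genes.

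Several lists of other cell types moved with the same contrast, in which 22.7% of all tested genes were higher and 22.0% were lower. All 4 tested smooth muscle genes were higher in LGR5-high (ACTA2, MYH11, CNN1 and TAGLN), and the 5 listed genes summed to 403 and 292 CPM in LGR5-high and 15.1 and 14.6 CPM in LGR5-negative. Most of that sum was TAGLN, with 389 and 277 CPM in LGR5-high and 11.4 and 9.99 CPM in LGR5-negative. ACTA2, MYH11 and CNN1 were each between 3.90 and 5.51 CPM in LGR5-high, and the muscle intermediate filament gene DES had 0 and 2 counts there. Of 7 fibroblast genes, 1 was higher and 5 were lower. The pigs went opposite ways in the sum, with 233 and 450 CPM in LGR5-high and 352 and 229 CPM in LGR5-negative. COL1A1 was the higher gene, with 142 and 331 CPM in LGR5-high and 94 and 37.3 CPM in LGR5-negative. DCN was lower, with 83.4 and 112 CPM against 182 and 163 CPM, and so was LUM, with 5 and 0 counts against 47 and 31. The 5 endothelial genes summed to 4.89 and 6.75 CPM in LGR5-high and 17.7 and 19.3 CPM in LGR5-negative, and 4 of them were lower. Melanocyte genes summed to 36.3 and 31.7 CPM in LGR5-high and 57.4 and 216 CPM in LGR5-negative. Schwann cell genes summed to 10.9 and 16.3 CPM in LGR5-high and 15.4 and 23.1 CPM in LGR5-negative. The part of these cells in the integrin differences was not tested.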

How the data were processed

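RNA of FACS sorted LGR5-high and LGR5-negative epidermal cells of 2 pigs was sequenced for the authors by a service provider as paired-end poly(A) libraries. The values deposited by the authors are raw counts for each gene symbol, not normalized. The submitters' processing notes name Trimmomatic 0.36, STAR 2.5.2b and featureCounts of Subread 1.5.2. The genome build, annotation and strand setting are not given in the sources used here, so antisense reads cannot be set apart. An entry without a name, holding 0.36 to 0.626% of counts, was left out. All 10 integrin symbols matched RefSeq's list for Sscrofa11.1, a table used only for its names. No sequences and no transcript lengths were used, so CPM, the marker sums and the count ratios are not corrected for length. The planned share of each beta subunit per length was not computed.

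The quasi-likelihood test of edgeR 4.0.16 (R 4.3.3) was run on the counts. The filter filterByExpr kept genes (minimum count 10, minimum total 15), libraries were scaled by TMM, and the population was the only term. P-values were 2-sided and adjusted by Benjamini-Hochberg over all tested genes, with a threshold of 0.05. CPM are mean ± SD over the pigs, the intervals are 95% intervals of the fit, and log2 fold changes of each pig come from log2 CPM. The libraries were paired by pig. After subtracting each population's mean, the LGR5-high and LGR5-negative libraries of a pig correlated at 0.370 over 15980 genes. Alternatives were other scalings and filters, the pig as a replicate block, DESeq2 1.42.0, limma-voom (limma 3.58.1), Student's t-test, which the study's methods name, run here on log2(CPM + 1), and leaving out each library. The edgeR, DESeq2 and limma-voom tests were checked on simulated data with few changed genes and no difference between pigs. On those data the t-test lacked the power to make calls after adjustment. On the deposited counts it called 544 genes higher and 502 lower, so the simulation cannot be used to discount its results here. Plots were drawn with matplotlib 3.10.9. The libraries came from only 2 pigs, and the spread behind the edgeR p-values is drawn in part from all tested genes. With the block, the difference in level between the pigs is taken out of that spread. These p-values therefore do not measure the spread between pigs of a single gene.

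The members and the gene lists were chosen with earlier results of these data known. Named genes are the 10 integrins, the tested integrins of a second list, and in each other list the 2 called genes with the smallest p-value in each direction. The 5 genes nearest to ITGB6 and LGR5 were also named. Further genes of these lists, and the markers, were named after their values were seen.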

Additional observations from a re-analysis of the deposited data

How the results depend on the processing

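Under the 14 other settings, ITGB6, ITGA5, ITGB8 and ITGAV kept their direction, and each lost its call only with the t-test on log2 CPM, whose adjusted p-values were 0.0595, 0.104, 0.0615 and 0.0737. ITGB1 also lost its call there (adjusted p = 0.171), and with 3 of the 4 libraries left out. That test called 0 integrins higher and 0 lower, with 5 at an unadjusted p-value under 0.05, and it called 544 genes higher and 502 lower over all genes, and 13 and 3 of the adaptor, ligand, TGF-beta and receptor genes, against 51 and 16 in the main analysis. Under the replicate block (pig), 6 integrins were higher and 1, ITGB5, was lower, and the block ended no call among the 10 genes. Leaving out each library in turn gave 4 to 6 higher and 0 to 1 lower integrins, and over all genes 2279 to 3169 higher and 2139 to 3004 lower. Library size only gave 6 higher integrins, with ITGA2 added (log2 fold change 0.65, adjusted p = 0.0308), and called ITGAE higher (0.69, adjusted p = 0.0375). It gave 5473 higher and 2326 lower genes over all, and a median log2 fold change of 0.24 over all genes and 0.65 over the integrins. The median of the integrins, 0.43 in the main analysis, was lowest at 0.23 without the LGR5-high library of pig 88R. It was highest at 0.68 without that of pig 95R. Under every setting it moved by less than the SD of the medians of the 2 pigs, but these medians were far apart, at 0.74 and 0.21. Directions turned only for genes that the main analysis did not call, of which ITGB5 was called lower with the block. ITGA3, at -0.03, was at 0.06 with upper quartile scaling and 0.19 with library size only, and -0.14 to 0.06 when a library was left out. With library size only, ITGB5 was at 0.01, ITGA10 at 0.07 and ITGB2 at 0.18, and ITGB2 was at 0.05 with upper quartile scaling. With a library left out, ITGA2B ran from -0.09 to 0.11, ITGA11 from -0.97 to 1.58, ITGAM from -4.94 to 4.23, ITGAX from -0.96 to 0.16 and ITGB2 from -0.23 to 0.15. The cause was not tested. Per-length shares of the beta subunits, planned with and without length scaling, were not run.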

Other observations

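Among the integrin genes of blood cells, ITGAL and ITGA4 were called higher, and ITGA2B, ITGAD, ITGAE, ITGAM, ITGAX, ITGB2 and ITGB7 were not called. ITGA4 had 112 and 78 counts in LGR5-high and 11 and 4 in LGR5-negative. ITGAL, the alpha subunit of a leukocyte receptor for ICAM1, had 130 and 83 counts in LGR5-high (pig 88R first, then 95R), and 12 and 16 in LGR5-negative, with a log2 fold change of 2.72 (adjusted p = 0.00259 by edgeR). Its beta partner ITGB2 had 41 and 41 counts in LGR5-high, and 31 and 43 in LGR5-negative, and was not called. The pan-leukocyte gene PTPRC was lower, with 7 and 4 counts in LGR5-high and 55 and 86 in LGR5-negative. CD207 was also lower, with 9 and 7 counts against 74 and 172, while CD68 and CD163 were not called. The T cell gene CD3E had 0 and 0 counts in LGR5-high and 1 and 2 in LGR5-negative, too few to be tested. The part of blood cells in the ITGAL and ITGA4 differences was not tested. ITGAM separated the pigs rather than the populations. It had 5 and 5 counts in the libraries of pig 88R, and 219 and 274 in those of pig 95R, and its log2 fold change between populations was -0.46 (standard error 1.68).

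A list of 15 genes held matrix receptors that are not integrins, and tetraspanins, which associate with integrins in the membrane. Of these, 10 rose and 4 fell in LGR5-high, beside 22.7% and 22.0% of all tested genes. The median log2 fold change of the 15 was 0.60. SDC2 and SDC3, which encode syndecans, were higher, with 104 ± 11.4 and 89.3 ± 5.37 CPM in LGR5-high against 5.72 ± 0.341 and 35.2 ± 1.34 CPM in LGR5-negative (SD, n = 2). The syndecan gene SDC4 and the tetraspanin gene CD82 were lower, with log2 fold changes of -0.82 and -0.45. CD82 lost its call with library size only, where it was -0.23 (adjusted p = 0.0504 from edgeR).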
